A study of Mus musculus with 12 samples.

Results

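The genes described here are 40 genes of DNA replication and S phase: the subunits that license and fire replication origins, the replicative polymerases and primase, the sliding clamp and its loader, the single-strand binding protein, the enzymes that join the lagging strand and supply deoxynucleotides, and the E cyclins. They were chosen by gene symbol, and each gene was read from its brightest probe set, by the mean of all 12 arrays, among probe sets annotated to a single gene. All 40 were on the array, among 18193 genes, and 38 of them were among the 13698 genes that passed a filter on low intensity. Tyms and Ccne2 did not pass it and were not tested.

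The study sorted cells from dissociated mouse embryoid bodies, the aggregates in which embryonic stem cells begin to differentiate, at day 6 of differentiation in hanging droplets. The cells carried a pair of fluorescent reporters: dsRed under an element specific for the second heart field, a region of progenitors that feeds the growing heart tube, and eGFP driven by an enhancer active in cardiac cells. Sorting gave double-positive cells (dsRed and eGFP), red-only cells (dsRed alone), green-only cells (eGFP alone) and double-negative cells (neither), and each was profiled in experiments A, B and C on an Affymetrix mouse array, giving 3 arrays a population and 12 in all. All 4 populations came from cells with the same reporters, the labels name neither the stem cell line nor a treatment, and they do not say whether the letters stand for separate cultures, so the p-values measure the spread between these arrays.

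Replication starts from origins that the origin recognition complex, Cdc6 and Cdt1 load with the Mcm helicase in G1. Kinases, Cdc45, Mcm10 and the GINS complex then turn the loaded helicase into a moving fork, where primase and the polymerases copy both strands behind it, held by the PCNA ring. Many of these genes are transcribed in late G1 and S phase under E2F factors, so their mRNA is widely read as a sign of how many cells of a population are cycling. In bulk RNA, fewer cells in S phase and less of these mRNAs per cell cannot be told apart.

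Promoters of 6 members are printed here to show where the letters of E2F-type words lie in genes that were and were not called between populations. RefSeq promoter windows on GRCm38.p6, from 250 bases before to 50 bases after the start, were matched for 33 of the 40 members and for 27025 genes in all. On either strand, 13 of the 33 members (39.4%) held at least 1 of the 4 words TTTGGCGC, TTTCCCGC, TTTCGCGC and TTTGCCGC, against 704 of all 27025 genes (2.6%). The words can overlap each other, as they do in Mcm5 and in Mcm6. CCAAT, on either strand, was in 21 of the 33 members (63.6%), against 41.1% of all genes with a window. Each line gives 170 bases, with the words in capitals as they read on the gene's strand, 5′ to 3′. Mcm5 (chr8:75109339-75109508, plus strand), Mcm6 (chr1:128359706-128359875, minus strand), Cdc6 (chr11:98907981-98908150, plus strand) and Pola1 (chrX:93632156-93632325, minus strand) were called lower in double-positive cells, relative to double-negative ones. Orc1 (chr4:108579284-108579453, plus strand) and Gins3 (chr8:95633389-95633558, plus strand) hold such a word too and were not called. That depends on probe set and threshold. A dimmer probe set of Orc1 was lower in the same comparison, in a fit of every probe set on its own (log2 fold change -0.73, limma adjusted p = 0.000106). Gins3 missed the threshold at -0.31 (limma adjusted p = 0.0729).
Mcm5: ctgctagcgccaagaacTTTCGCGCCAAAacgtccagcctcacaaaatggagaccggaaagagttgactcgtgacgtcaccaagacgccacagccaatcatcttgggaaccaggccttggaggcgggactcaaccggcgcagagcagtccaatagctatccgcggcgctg
Mcm6: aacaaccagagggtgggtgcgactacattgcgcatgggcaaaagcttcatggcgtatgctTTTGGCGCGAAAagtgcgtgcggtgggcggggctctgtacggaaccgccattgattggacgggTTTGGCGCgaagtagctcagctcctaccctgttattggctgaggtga
Cdc6: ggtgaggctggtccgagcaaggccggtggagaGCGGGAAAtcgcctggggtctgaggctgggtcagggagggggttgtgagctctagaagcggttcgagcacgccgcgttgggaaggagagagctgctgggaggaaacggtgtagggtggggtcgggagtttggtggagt
Pola1: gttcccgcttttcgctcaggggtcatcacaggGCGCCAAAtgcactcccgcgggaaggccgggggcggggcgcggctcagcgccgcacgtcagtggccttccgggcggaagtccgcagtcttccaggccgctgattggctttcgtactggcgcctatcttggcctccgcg
Orc1: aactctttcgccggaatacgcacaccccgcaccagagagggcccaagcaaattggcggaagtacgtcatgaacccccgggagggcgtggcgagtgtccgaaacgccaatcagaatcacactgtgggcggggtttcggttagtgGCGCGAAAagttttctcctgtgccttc
Gins3: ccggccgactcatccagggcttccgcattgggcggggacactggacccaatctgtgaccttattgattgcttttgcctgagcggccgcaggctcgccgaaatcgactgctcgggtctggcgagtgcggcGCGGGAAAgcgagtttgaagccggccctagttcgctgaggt

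Values are array intensities in arbitrary units that the submitters' notes attribute to MAS5, and a probe set's level says nothing about another gene's level. Tests were made with limma on log2(intensity + 4.10), with Benjamini-Hochberg adjustment over all 13698 genes, and a gene was called at an adjusted p under 0.05. Array medians lay between 6.29 and 6.73 units. Array A of the green-only cells stood somewhat apart: over all genes the SD of its deviations from its population's mean was 0.192 on the log2 scale, while the other 11 arrays had 0.102 to 0.150. The sorted populations differed in other cell types' markers. The summed intensity of 5 cardiac muscle markers was 12680 to 15620 units in double-positive, 2446 to 3756 in red-only cells and 6973 to 8869 in green-only cells, against 267 to 413 in double-negative cells, and limma called all 5 higher in every reporter-positive population.

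Most replication genes were lower in all 3 reporter-positive populations, relative to double-negative cells, and the median shift was largest in double-positive cells. In double-positive cells limma called 35 of the 38 tested members lower and 0 higher than in double-negative cells, against 17.6% and 13.9% of all genes, and 0 were higher at an unadjusted p under 0.05. The members' median log2 fold change was -0.79, against -0.01 for all genes. In green-only cells 32 of 38 were lower (11.4% of all genes) and 0 higher (9.34% of all genes) with a median of -0.64. In red-only cells 26 of 38 were lower (12.7% of all genes) and 0 higher (10.9% of all genes) with a median of -0.41. At an unadjusted p under 0.05, 0 members were higher in green-only cells and 1, Orc6, in red-only cells. These 3 comparisons share the double-negative arrays. Every double-positive array lay below every double-negative array for 36 of the 38 members (24.6% of all genes), and the corresponding counts were 34 in green-only (17.8%) and 28 in red-only cells (20.6%). Within experiments A, B and C the members' median difference of double-positive minus double-negative cells was -0.88, -0.64 and -0.73.

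**Figure D1:**
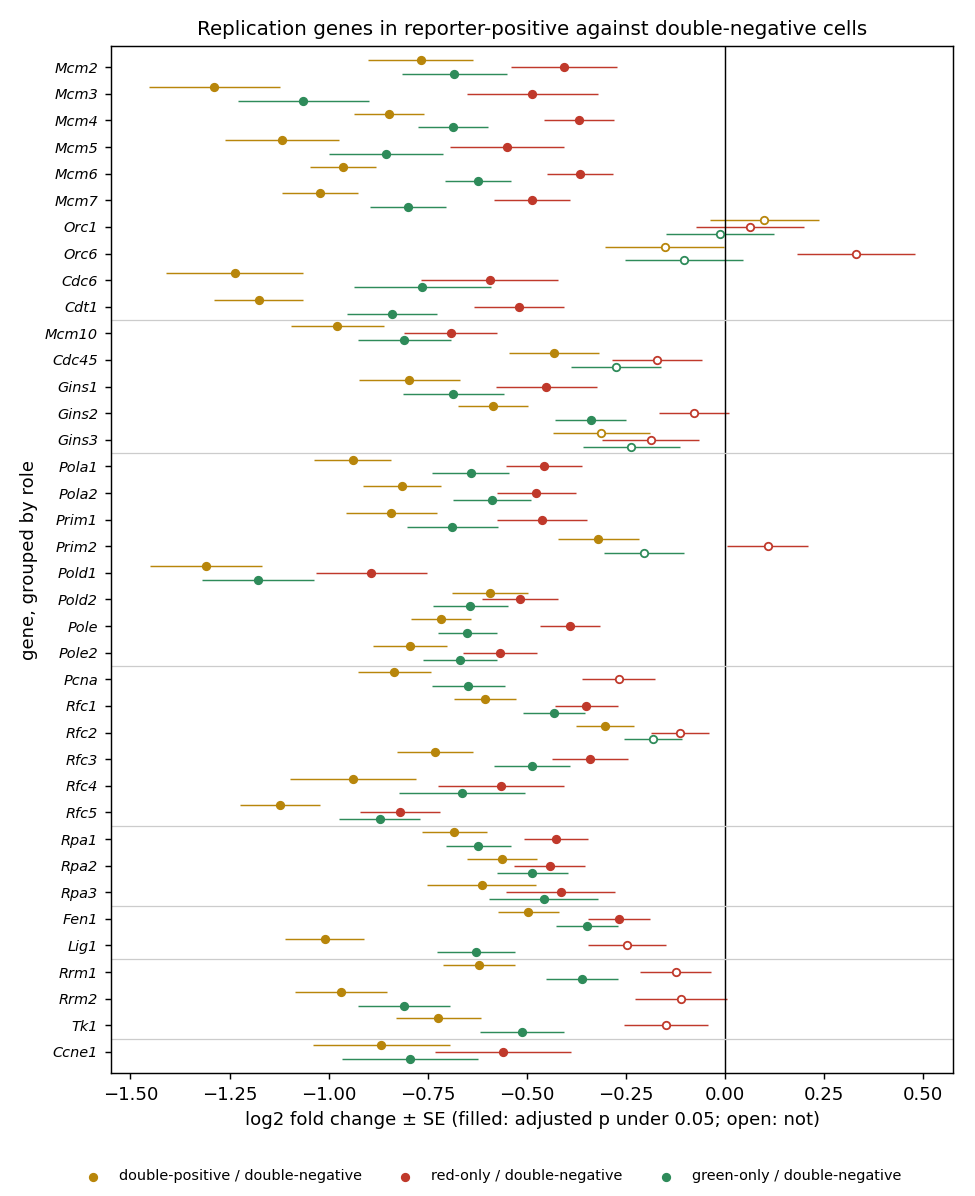
Log2 fold change of each of the 38 tested replication genes (rows, grouped by role) over double-negative cells, with 1 colour for each reporter-positive population, bars of 1 SE and filled points for an adjusted p under 0.05. Of the double-positive points 35 are filled, and they lie between -1.31 and -0.30.

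Origin licensing genes were lower as a class. Of 10 members, 8 were lower in every reporter-positive population, and the class median in double-positive over double-negative cells was -0.99. The 6 Mcm genes encode the hexameric helicase. Mcm6 read 192, 210.0 and 233 in double-positive cells, 328, 310.0 and 327 in red-only cells and 287, 247 and 272 in green-only cells, against 425, 403 and 418 in double-negative cells (experiments A, B and C in this order throughout). The populations did not overlap for Mcm6: every double-positive array was below every green-only array, these were below the red-only arrays, and the double-negative arrays were highest. Its log2 fold change was -0.96 ± 0.08 (SE; adjusted p = 2.19e-06) in double-positive, -0.36 ± 0.08 (SE; adjusted p = 0.00637) in red-only cells and -0.62 ± 0.08 (SE; adjusted p = 0.000183) in green-only cells. Mcm7 read 583, 709 and 718 in double-positive cells, 962, 959 and 987 in red-only cells and 859, 712 and 772 in green-only cells, against 1445, 1269 and 1368 in double-negative cells. Its double-positive array of experiment C overlapped the green-only arrays, while all double-negative arrays stood above the other 9. The log2 fold change of Mcm7 was -1.02 ± 0.10 (SE; adjusted p = 4.53e-06) in double-positive cells. Among the other helicase subunits, Mcm3 fell by 1.29, Mcm5 by 1.12, Mcm4 by 0.85 and Mcm2 by 0.77 on the log2 scale in the same comparison. In red-only cells the calls of Mcm3, Mcm2, Cdc6 and Mcm5 were lost under 14, 7, 3 and 1 of 22 alternatives, a minimum fold aside. These losses concern the chosen probe sets. In red-only cells limma called every other tested probe set of Mcm3 (adjusted p from 0.0032 to 0.0119) and of Mcm2 (adjusted p = 0.00681) lower. Red-only calls of Ccne1, Fen1, Gins1, Rfc3 and Rfc4 were also lost under some alternatives.

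The loading factors were lower too. Cdt1, which carries the Mcm ring to origins, read 114, 145 and 139 in double-positive cells, 205, 195 and 235 in red-only cells and 173, 152 and 180.4 in green-only cells, against 269.6, 317 and 329 in double-negative cells. Its 3 double-positive arrays were the lowest of the 12 and its 3 double-negative arrays the highest. The log2 fold change was -1.18 ± 0.11 (SE; adjusted p = 5.49e-06). Cdc6, an ATPase that helps load the ring, was -1.24 ± 0.17 (SE; adjusted p = 0.000123) in double-positive cells on the same scale, from intensities of 15.4, 20.2 and 21.8, against 57.7, 45.8 and 47.96 in double-negative cells.

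The origin recognition subunits Orc1 and Orc6 were called in no comparison of the fit by population. Orc6 read 104, 147 and 156 in double-positive cells, 174, 189 and 203 in red-only cells and 135, 125 and 158 in green-only cells, against 129, 146 and 176 in double-negative cells, so its red-only arrays were high, with double-negative C among them, and the other 3 populations overlapped. Its log2 fold change in double-positive over double-negative cells was -0.15 ± 0.15 (SE; adjusted p = 0.518), and in red-only cells it was 0.33 ± 0.15 (SE; adjusted p = 0.141). With experiment as a block the red-only cells were called higher than double-negative cells (adjusted p = 0.0247) and than green-only cells (adjusted p = 0.024), and double-positive cells lower than red-only cells (adjusted p = 0.00538). Orc1, the largest subunit of the recognition complex, read 14.2, 14.95 and 17.5 in double-positive cells, 14.1, 15.5 and 15.5 in red-only cells and 10.2, 18.7 and 14.2 in green-only cells, against 15.5, 14.6 and 12.7 in double-negative cells. All 4 populations overlapped, with a log2 fold change of 0.10 ± 0.14 (SE; adjusted p = 0.659) in double-positive over double-negative cells. The probe sets of Orc1 disagreed. A dimmer probe set read 5.57, 6.45 and 8.54 in double-positive cells, 9.08, 7.87 and 8.64 in red-only cells and 8.79, 7.64 and 8.70 in green-only cells, against 15.1, 12.5 and 14.5 in double-negative cells. It was lower by 0.73 on the log2 scale in double-positive cells (adjusted p = 0.000106), so the direction for Orc1 depends on the probe set and its call is uncertain.

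Of 5 helicase activation genes, 4 were lower in double-positive, 2 in red-only cells and 3 in green-only cells, with medians of -0.59, -0.19 and -0.34 over double-negative cells. Mcm10, which binds the active helicase and polymerase alpha, read 37.7, 48.7 and 44.9 in double-positive cells, 61.3, 45.03 and 57.0 in red-only cells and 51.6, 47.6 and 49.2 in green-only cells, against 79.9, 94.97 and 95.2 in double-negative cells. The double-negative arrays stood above all others, and the other 3 populations overlapped. Its log2 fold changes were -0.98 (adjusted p = 3.52e-05) in double-positive, -0.69 (adjusted p = 0.000932) in red-only cells and -0.81 (adjusted p = 0.000337) in green-only cells. Gins2, a subunit of the GINS complex, read 113, 127 and 118 in double-positive cells, 160.1, 175 and 179 in red-only cells and 143, 141 and 142 in green-only cells, against 159, 185 and 201 in double-negative cells. Red-only and double-negative cells overlapped for Gins2, with a log2 fold change of -0.08 ± 0.09 (SE; adjusted p = 0.612), and in double-positive over double-negative cells it was -0.59 ± 0.09 (SE; adjusted p = 0.000233). Gins3, another subunit of that complex, read 18.1, 19.2 and 17.7 in double-positive cells, 17.1, 24.7 and 19.9 in red-only cells and 16.2, 19.2 and 23.9 in green-only cells, against 25.04, 23.4 and 22.9 in double-negative cells. Its double-negative arrays overlapped the red-only and green-only arrays, and no comparison called it. In double-positive over double-negative cells the log2 fold change of Gins3 was -0.31 ± 0.12 (SE; adjusted p = 0.0729).

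**Figure D2:**
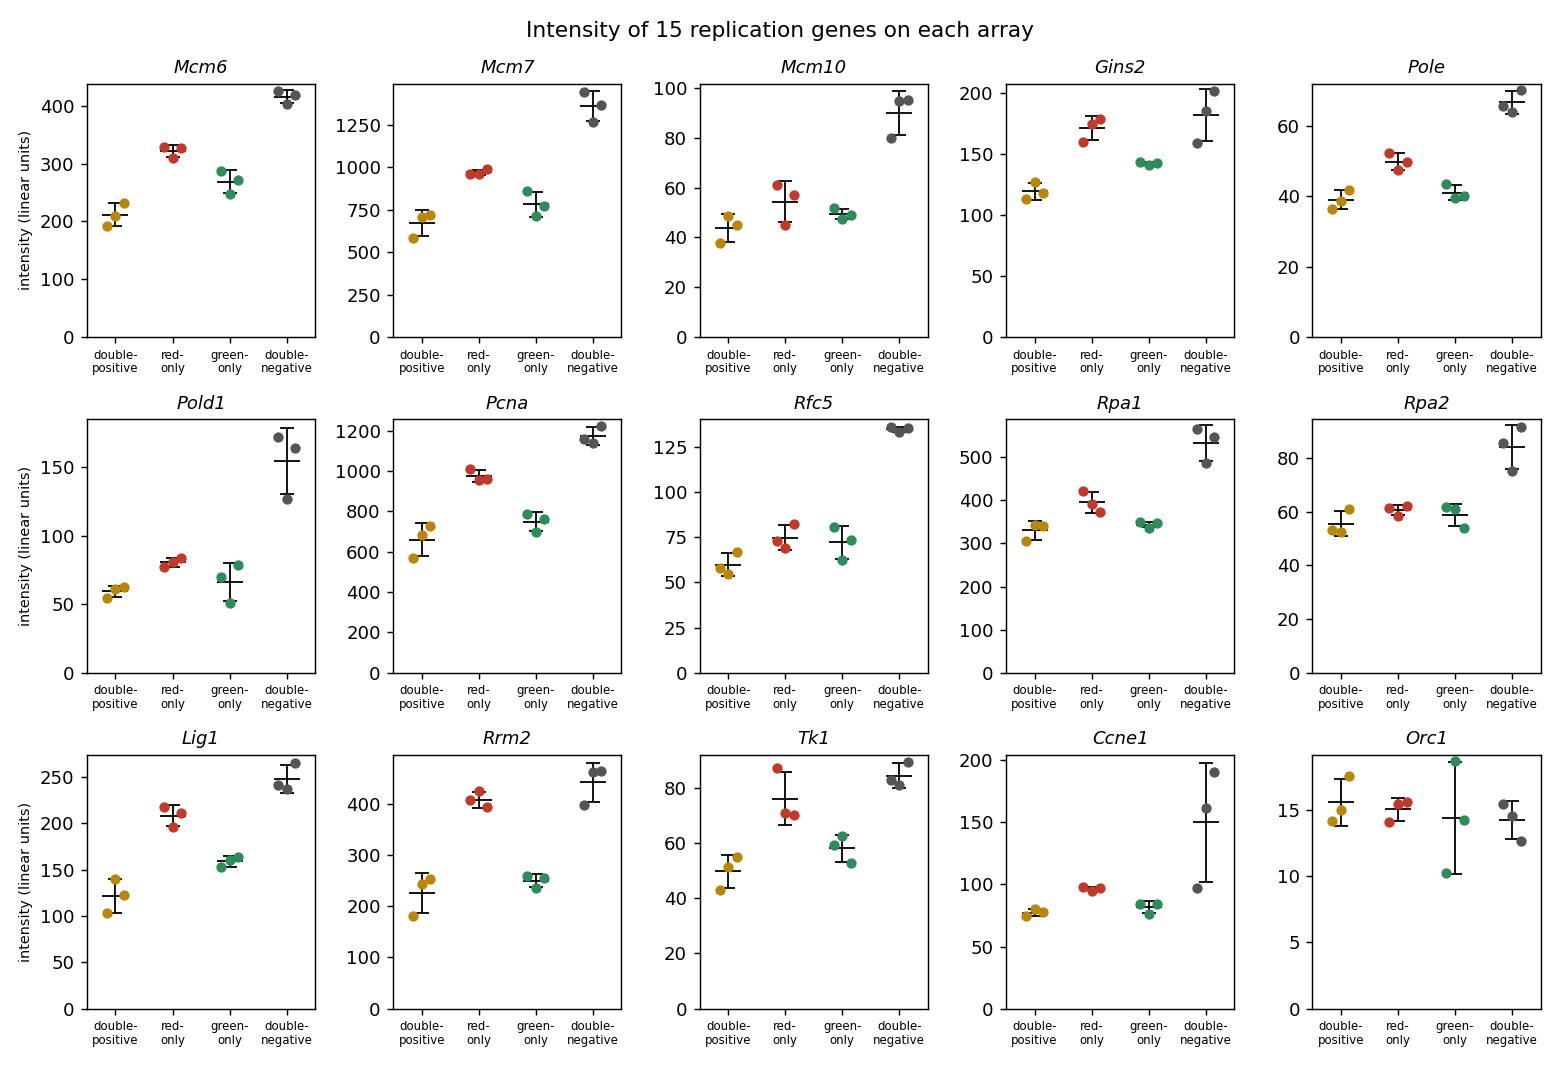
Intensity in arbitrary units of 15 replication genes on each of the 12 arrays, by population, with points for experiments A, B and C from left to right and a bar at the mean with its SD. In the panels of Mcm6, Pold1 and Rfc5 the 3 double-negative arrays lie above the other 9, and in the panel of Orc1 the populations overlap.

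All 8 polymerase and primase genes were lower in double-positive cells, 7 in red-only cells and 7 in green-only cells. Pold1, the catalytic subunit of the lagging-strand polymerase delta, read 54.7, 60.7 and 62.4 in double-positive cells, 77.2, 80.4 and 83.8 in red-only cells and 69.8, 50.8 and 78.3 in green-only cells, against 172, 127 and 164 in double-negative cells. Its lowest double-negative array was at 126.7 units and the highest of the other 9 at 83.8. The log2 fold change was -1.31 ± 0.14 (SE; adjusted p = 1.43e-05) in double-positive, -0.89 ± 0.14 (SE; adjusted p = 0.000551) in red-only cells and -1.18 ± 0.14 (SE; adjusted p = 7.39e-05) in green-only cells. Pole, the catalytic subunit of the leading-strand polymerase epsilon, read 36.4, 38.8 and 41.7 in double-positive cells, 52.2, 47.5 and 49.8 in red-only cells and 43.5, 39.4 and 40.1 in green-only cells, against 65.8, 63.8 and 70.3 in double-negative cells. Double-positive and green-only cells overlapped for Pole, red-only cells lay above them and double-negative cells above all, with a log2 fold change of -0.72 ± 0.08 (SE; adjusted p = 1.15e-05) in double-positive cells. On the log2 scale Prim1, the catalytic subunit of primase, was -0.84 (adjusted p = 9.60e-05) in double-positive and -0.46 (adjusted p = 0.0099) in red-only cells over double-negative cells, whereas Prim2, the regulatory subunit, was -0.32 (adjusted p = 0.0287) and 0.11 (adjusted p = 0.523) in the same comparisons. On this probe set Prim2 had its highest mean in red-only cells. They read 57.9, 48.5 and 53.3 against 46.2, 49.6 and 51.3 in double-negative cells, and those arrays overlapped. The double-positive call of Prim2 was lost without double-positive A or B or double-negative B or C, with adjusted p up to 0.0969. A dimmer Prim2 probe set was highest in double-negative cells, with 38.95, 39.8 and 34.5 against 34.9, 32.9 and 33.6 in red-only cells. Limma called it lower in double-positive cells (-0.56, adjusted p = 0.000111) but not in red-only cells (-0.14, adjusted p = 0.237). The dimmest was called in neither (0.02, adjusted p = 0.937, and -0.02, adjusted p = 0.944).

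The clamp Pcna and the 5 subunits of its loader, replication factor C, were all lower in double-positive cells, 4 of the 6 in red-only cells and 5 in green-only cells. Pcna read 568, 682 and 728 in double-positive cells, 1008, 953 and 959 in red-only cells and 786, 695 and 763 in green-only cells, against 1157, 1140.2 and 1222 in double-negative cells. Every double-positive array was below every red-only and double-negative array, and the red-only arrays were below the double-negative arrays without passing the test. Its log2 fold change was -0.83 ± 0.09 (SE; adjusted p = 1.68e-05) in double-positive, -0.27 ± 0.09 (SE; adjusted p = 0.0509) in red-only cells and -0.65 ± 0.09 (SE; adjusted p = 0.000278) in green-only cells. With experiment as a block Pcna was called lower in red-only cells (adjusted p = 0.0438). Rfc5 read 58.02, 54.7 and 66.7 in double-positive cells, 72.7, 69.1 and 82.3 in red-only cells and 80.3, 62.3 and 73.7 in green-only cells, against 136, 133 and 135 in double-negative cells. The double-negative arrays lay within 133 to 136 units, above all other arrays. The fitted log2 fold change was -1.12 ± 0.10 (SE; adjusted p = 3.15e-06) in double-positive, -0.82 ± 0.10 (SE; adjusted p = 9.34e-05) in red-only cells and -0.87 ± 0.10 (SE; adjusted p = 6.06e-05) in green-only cells.

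The 3 subunits of replication protein A, which coats single-stranded DNA, were called lower in all 3 reporter-positive populations, least firmly Rpa3. Its log2 fold change was -0.41 ± 0.14 (SE; adjusted p = 0.0455) in red-only cells and -0.46 ± 0.14 (SE; adjusted p = 0.0319) in green-only cells. The red-only call was lost under 11 of 22 alternatives, among them leaving out any 1 array of the double-positive or red-only cells or double-negative A or C, and the green-only call under 4 of 22, among them leaving out green-only B, double-negative A or double-negative C. Rpa1 read 306, 343 and 341 in double-positive cells, 422, 391 and 372 in red-only cells and 349, 336 and 346 in green-only cells, against 566, 486 and 546 in double-negative cells. Double-negative arrays were highest, with a log2 fold change of -0.68 ± 0.08 (SE; adjusted p = 3.42e-05) in double-positive cells. Rpa2 read 53.2, 52.4 and 60.9 in double-positive cells, 61.5, 58.4 and 61.9 in red-only cells and 61.5, 60.8 and 53.9 in green-only cells, against 85.6, 75.2 and 91.3 in double-negative cells, and only its double-negative arrays stood apart, with a log2 fold change of -0.56 ± 0.09 (SE; adjusted p = 0.000317) for double-positive cells. Lig1, the ligase that joins Okazaki fragments, read 103, 139.7 and 122 in double-positive cells, 218, 196 and 211 in red-only cells and 152, 160.3 and 164 in green-only cells, against 241, 237 and 265 in double-negative cells. The populations did not overlap for Lig1, and red-only cells lay nearest to double-negative cells. On the log2 scale its fold change was -1.01 ± 0.10 (SE; adjusted p = 6.34e-06) in double-positive cells and -0.25 ± 0.10 (SE; adjusted p = 0.094) in red-only cells. Fen1, the flap nuclease, had a log2 fold change of -0.50 (adjusted p = 0.000293) in double-positive cells.

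Genes of deoxynucleotide supply had log2 fold changes between -0.15 and -0.11 in red-only over double-negative cells. All 3 tested members were lower in double-positive and in green-only cells, and limma called 0 of the 3 in red-only cells, where 0 also had an unadjusted p under 0.05. Rrm2, the small subunit of ribonucleotide reductase whose level follows S phase, read 180.2, 243 and 253 in double-positive cells, 406, 424 and 393 in red-only cells and 259, 235 and 255 in green-only cells, against 398, 462 and 465 in double-negative cells. Red-only and double-negative arrays overlapped, and all double-positive and green-only arrays lay below both. The gene's log2 fold change was -0.97 ± 0.12 (SE; adjusted p = 3.32e-05) in double-positive, -0.11 ± 0.12 (SE; adjusted p = 0.574) in red-only cells and -0.81 ± 0.12 (SE; adjusted p = 0.000291) in green-only cells. Tk1, the thymidine kinase of cycling cells, read 43.1, 51.3 and 54.9 in double-positive cells, 87.3, 70.9 and 70.1 in red-only cells and 59.2, 62.5 and 52.6 in green-only cells, against 82.7, 81.2 and 89.5 in double-negative cells, with a log2 fold change of -0.72 ± 0.11 (SE; adjusted p = 0.000186) in double-positive and -0.15 ± 0.11 (SE; adjusted p = 0.38) in red-only cells. Rrm1, the large subunit, had log2 fold changes of -0.62 (adjusted p = 0.000166) in double-positive, -0.12 (adjusted p = 0.388) in red-only cells and -0.36 (adjusted p = 0.012) in green-only cells. Tyms, thymidylate synthase, read 4.27, 4.04 and 4.70 in double-positive cells, 5.59, 4.57 and 5.12 in red-only cells and 3.78, 3.79 and 4.70 in green-only cells, against 4.98, 4.07 and 4.72 in double-negative cells, values near the lower end of the arrays' range.

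Cyclin E activates the kinase that starts S phase. Ccne1 read 74.7, 79.8 and 77.6 in double-positive cells, 98.2, 95.1 and 96.9 in red-only cells and 84.4, 76.3 and 84.2 in green-only cells, against 97.3, 162 and 191 in double-negative cells. The double-negative array of experiment A lay at the level of the red-only arrays and the other 2 were well above it, and the log2 fold change was -0.87 ± 0.17 (SE; adjusted p = 0.00174) in double-positive cells. Another probe set of Ccne1 read 48.0, 62.7 and 53.9 in double-positive cells, against 137, 128 and 117 in double-negative cells, with no overlap. Ccne2 read 4.86, 4.47 and 5.30 in double-positive cells, 3.96, 4.60 and 4.72 in red-only cells and 5.42, 5.05 and 4.15 in green-only cells, against 3.94, 4.20 and 4.06 in double-negative cells, and it was not tested.

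Further probe sets of the same genes gave a check on the choice of probe set. Their tests, here and above, come from a limma fit of every probe set on its own, adjusted over 23232 probe sets. For members called in double-positive against double-negative cells, 23 had 32 further probe sets, of which 31 had the same direction, 28 were called themselves and 0 were called in the opposite direction. Among the 40 chosen probe sets, 5 are of the type (_x_at) and 3 of the type (_s_at) whose probes can match several transcripts, Rrm2 among them, and the part of related transcripts in their signal was not tested.

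Double-positive cells were also lower than red-only cells. In that comparison 19 of 38 members were called lower and 0 higher (6.17% and 5.94% of all genes), the median log2 fold change was -0.38, and 31 members did not overlap (16.6% of all genes). Double-positive A had the lowest member median of all arrays, and 13 members were called without it. With experiment as a block, Mcm2, Orc6, Pold1 and Rfc5 were called in addition (adjusted p from 0.00538 to 0.0300). Origin licensing gave 7 of the 19 calls, polymerases and primase 5, and deoxynucleotide supply 3. On the log2 scale Rrm2 differed most, by -0.86 ± 0.12 (SE; adjusted p = 0.00033), followed by Mcm3 at -0.80 (adjusted p = 0.00635), Lig1 at -0.76 (adjusted p = 0.000245) and Mcm6 at -0.60 (adjusted p = 0.00044). Replication protein A gave 0 of 3 calls with limma, and 1 of its genes had an unadjusted p under 0.05.

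Few members were called between double-positive and green-only cells. On the log2 scale Mcm6, at -0.34 ± 0.08 (SE; adjusted p = 0.032), and Lig1, at -0.38 ± 0.10 (SE; adjusted p = 0.0414), were the 2 of 38 members called lower (2.77% of all genes), and the median was -0.16. Both calls were lost with limma without double-positive A, without green-only A or without green-only C, when 0 members were called and 4, 6 and 10 had an unadjusted p under 0.05, and 1 was left without any of 6 other arrays (double-positive B or C, red-only A or C, double-negative A or B). Shares of all genes at the unadjusted threshold were not counted. With experiment as a block Cdt1 was called too (adjusted p = 0.0479). The median was -0.08 without double-positive A. Within experiments it was -0.42, -0.02 and -0.11 in A, B and C, so the difference lay mostly in experiment A.

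Red-only cells were above green-only cells for every tested member, by a median of 0.23, with 2 members called higher and 0 lower by limma (1.32% and 1.77% of all genes). At an unadjusted p under 0.05, 15 were higher and 0 lower, and the share of all genes at that unadjusted threshold was not counted. Within experiments A, B and C the median was 0.18, 0.26 and 0.21, and 27 of 38 members were higher in all 3 (19.5% of all genes). The 2 called were Rrm2, at a log2 difference of 0.70 ± 0.12 (SE; adjusted p = 0.0054), and Pcna, at 0.38 ± 0.09 (SE; adjusted p = 0.0439), and 20 members did not overlap (8.68% of all genes). With experiment as a block 5 members were called, Mcm3, Orc6 and Lig1 in addition (adjusted p from 0.024 to 0.0403). Without green-only A the count was 4, and without any 1 of the red-only arrays, the double-negative arrays, green-only B or green-only C it was 1.

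Limma's interaction term compares the double-positive difference from double-negative cells with the red-only and green-only differences added together. It was called for 3 of 38 members, Pold1, Pold2 and Rfc5, all in the positive direction (4.8% of all genes). Whether 3 of 38 exceeds that share was not tested. With experiment as a block Pole2, a subunit of polymerase epsilon, was called too (0.44 ± 0.13 on the log2 scale, SE; adjusted p = 0.0442).

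**Figure D3:**
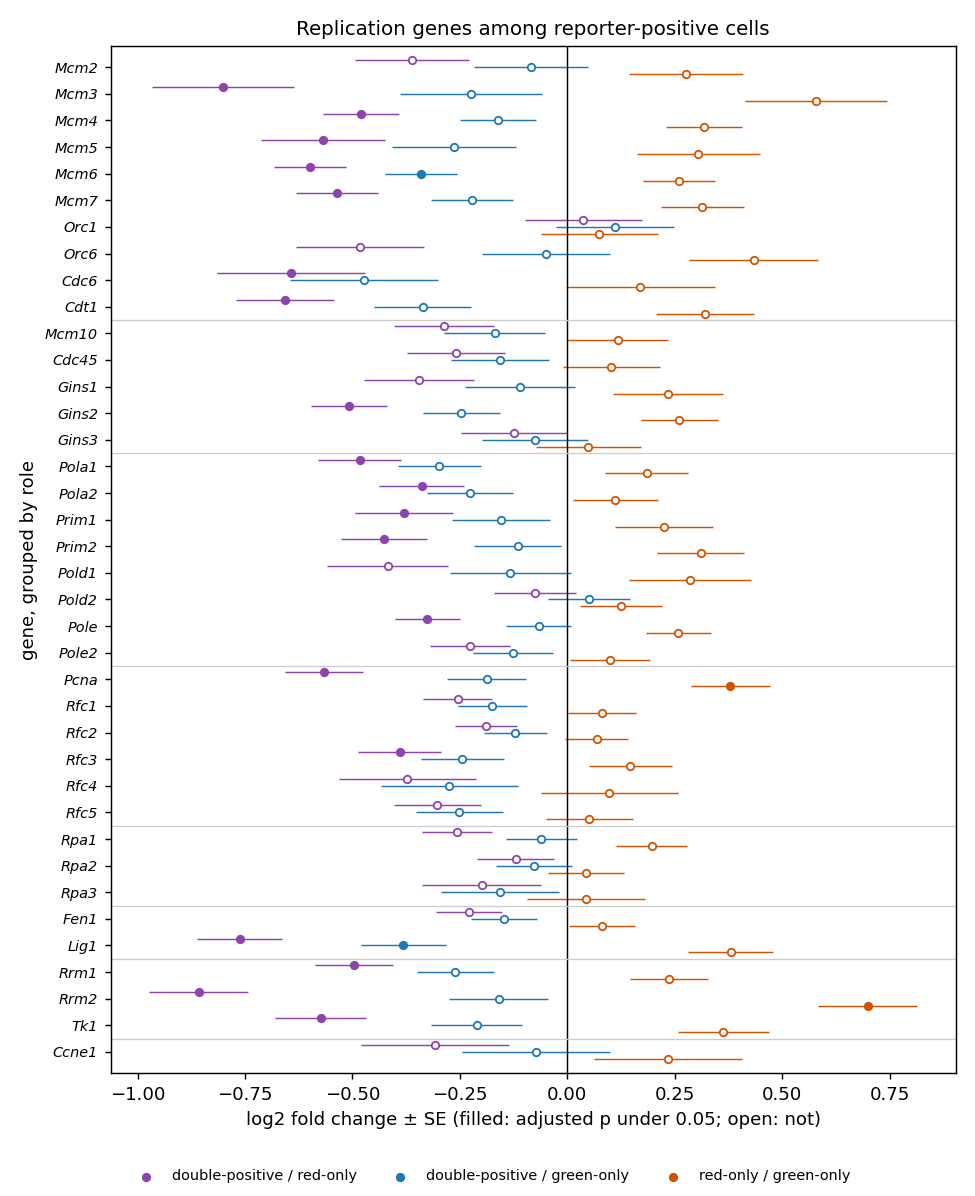
Log2 fold change of the 38 tested replication genes between reporter-positive populations, with 1 colour for each comparison, bars of 1 SE and filled points for an adjusted p under 0.05. All 38 points of red-only over green-only cells lie right of 0, and 2 of them are filled.

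The order of the 4 population means was alike for most members. For 34 of 38 the mean was lowest in double-positive cells, then green-only, then red-only, and highest in double-negative cells. By the chosen probe sets, Orc6 and Prim2 were highest in red-only cells, Pold2 was lowest in green-only cells, and Orc1 was highest in double-positive cells. A dimmer probe set of Prim2 and a dimmer one of Orc1 were highest in double-negative cells. Of the neighbouring steps, double-positive below green-only cells was called for 2 members with 12 not overlapping (10.9% of all genes), and red-only above green-only cells for 2 members with 20 not overlapping. Centred per gene, the members' median per array was -0.46, -0.28 and -0.26 in double-positive, 0.08, 0.02 and 0.06 in red-only and -0.11, -0.26 and -0.12 in green-only cells, against 0.43, 0.38 and 0.50 in double-negative cells, on the log2 scale. All 3 double-negative arrays lay above the other 9, and red-only arrays above green-only and double-positive arrays.

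**Figure D4:**
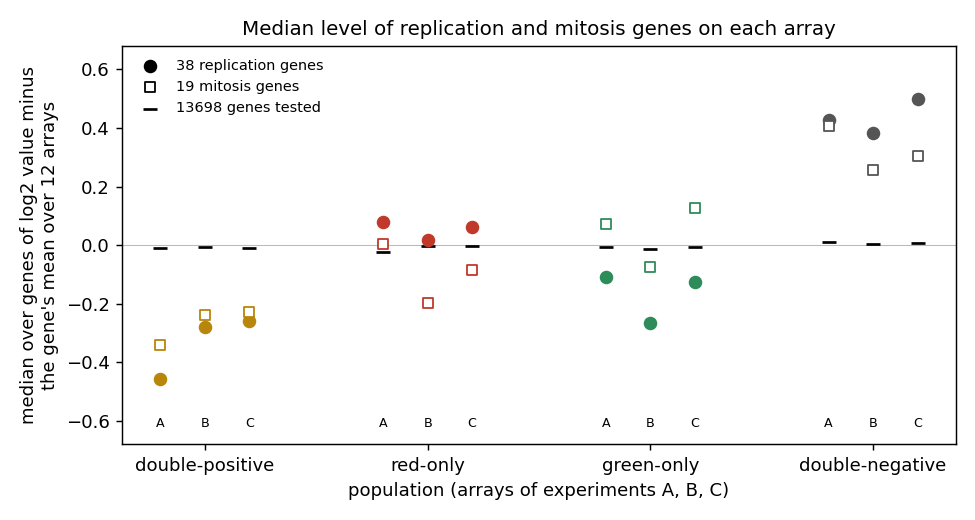
Median over genes of the log2 value minus the gene's mean over the 12 arrays, on each array of experiments A, B and C, for 38 replication genes (filled circles), 19 mitosis genes (open squares) and all 13698 genes (dashes). The replication genes lie between -0.46 and -0.26 on the double-positive arrays and between 0.38 and 0.50 on the double-negative arrays.

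Other genes of the pathway, listed apart from the members, were read in the same fits. Of 24 further replication factors, 19 were lower in double-positive cells, 13 in red-only cells and 17 in green-only cells, relative to double-negative cells. The shares of all genes were 17.6%, 12.7% and 11.4%. Timeless and Tipin, which hold the fork together under stress, had log2 fold changes of -1.16 (adjusted p = 2.15e-06) and -0.91 (adjusted p = 1.05e-05) in double-positive cells. On the same scale Topbp1, which helps recruit Cdc45, was -1.10 (adjusted p = 4.25e-05), and Dbf4, the activating subunit of the Cdc7 kinase, was -1.06 (adjusted p = 1.18e-06). Pole3 was the 1 gene of this list called higher, in red-only cells at 0.26 ± 0.07 on the log2 scale (SE; adjusted p = 0.0192), and was picked out after its values were seen.

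Of 11 tested E2F and pocket protein genes, 4 were lower and 1 higher in double-positive cells, where 17.6% of all genes were lower and 13.9% higher. On the log2 scale E2f7, a repressor of E2F targets, was -1.02 (adjusted p = 8.77e-05), while E2f8, its close relative, was 0.49 (adjusted p = 0.00486). E2f8 read 40.1, 48.1 and 42.4 in double-positive cells, 24.97, 27.3 and 30.5 in red-only cells and 30.4, 36.7 and 38.5 in green-only cells, against 29.6, 34.3 and 25.6 in double-negative cells, so its double-positive arrays were the highest of the 12. The log2 fold change of E2f4 was -0.52 (adjusted p = 9.19e-05) and that of Tfdp1, the dimer partner, -0.50 (adjusted p = 0.0045). For E2f1, an activator, it was -0.33 (adjusted p = 0.0429) and for Rb1, the pocket protein that restrains it, -0.11 (adjusted p = 0.356). Rb1 was dim, at intensities of 4.65 to 6.84, mostly below the array medians of 6.29 to 6.73, which limits what can be said of it.

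Of 10 tested S phase kinase and chromatin genes, 8 were lower in double-positive, 6 in red-only cells and 7 in green-only cells (17.6%, 12.7% and 11.4% of all genes). Dut, which removes dUTP from the nucleotide pool, read 59.8, 59.2 and 64.9 in double-positive cells, 80.3, 73.9 and 83.2 in red-only cells and 69.4, 54.8 and 66.4 in green-only cells, against 178, 179 and 178 in double-negative cells. Its double-negative arrays lay at 178 to 179 units and the highest of the other 9 at 83.2. The log2 fold change of Dut in double-positive cells was -1.48 (adjusted p = 6.56e-08). On that scale Slbp, which binds histone mRNA, was -1.16 (adjusted p = 1.56e-05), Uhrf1, which couples replication to maintenance methylation, -1.08 (adjusted p = 1.26e-05), and the histone chaperone Nasp -1.07 (adjusted p = 6.43e-06). For Ccna2, the S phase cyclin, the log2 fold change was -0.70 (adjusted p = 2.23e-05).

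Pluripotency markers and most erythroid markers were lower in the same contrast, while endoderm, endothelial and neural markers gave mixed calls. The summed intensity of 5 pluripotency markers was 92.5 to 111 units in double-positive, 102 to 137 in red-only cells and 111 to 144 in green-only cells, against 1416 to 1690 in double-negative cells, and all 5 were lower in each. That of 5 erythroid markers was 57.5 to 105, 60.2 to 142 and 81.5 to 117 in the same populations, against 1068 to 1960 in double-negative cells, and 3 of 5 were lower in each. Nanog averaged 3.82, 4.04 and 4.47 units in the 3 reporter-positive populations, near the lower end of the arrays' range, against 51.7 in double-negative cells. Of 5 endoderm markers 2 were lower in double-positive, 1 in red-only cells and 0 in green-only cells. Of 5 endothelial markers 0 were called in double-positive cells, and 3 were higher in red-only cells and 3 in green-only cells. On the green-only arrays the endoderm sum ran from 176 to 959 units, highest in A, and the endothelial sum from 266 to 779, lowest in A. Of 5 neural markers 1, 2 and 1 were lower. Of all genes 17.6%, 12.7% and 11.4% were lower in these comparisons and 13.9%, 10.9% and 9.34% higher. The 3′ to 5′ signal ratio of the actin control was 1.55, 1.47 and 1.40 in double-positive cells, 1.40, 1.48 and 1.32 in red-only cells and 1.35, 1.44 and 1.33 in green-only cells, against 1.36, 1.36 and 1.34 in double-negative cells. The part of these in the replication genes' levels was not tested.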

How the data were processed

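Biotin-labelled RNA of 12 sorted samples was hybridised to 12 Affymetrix mouse arrays. The deposited values are intensities that the authors made with MAS5, per the submitters' processing notes, and its version, scaling and detection calls are not given in the sources used here. Of 45101 probe sets, 34945 had 1 gene in the platform annotation, 932 had several and 9160 had none listed, and 64 controls were left out. Here each gene took its brightest probe set (18193 genes), values were put on log2(intensity + 4.10), and genes averaging less than 3.22 (percentile 40 over the probe sets, controls aside) were dropped, leaving 13698. All 12 arrays were fitted by population with limma 3.58.1 in R 4.3.3 (8 residual degrees of freedom, lmFit and eBayes), and each contrast was adjusted over all genes by Benjamini-Hochberg.

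The interaction is double-positive minus red-only minus green-only plus double-negative. The fit was tested on 20 simulated data sets with 200 of 13698 genes changed between double-positive and double-negative cells. It recovered 64.7% of log2 changes of 0.5 and 96.2% of changes of 1, with 5.34% false. Smaller changes were not simulated, and in the data 4315 genes were called in that comparison. The number of arrays limits the precision. Experiment letters paired the samples: over 18 pairs of same-letter arrays the deviations from population means correlated by 0.116 to 0.423, and the labels give the shared letters.

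Named genes were the 2 members of each role class with the smallest F-test adjusted p (1 in a class of 2), the members never called, up to 4 genes of each pathway list with the largest called change in double-positive against double-negative cells, and Ccna2, E2f1 and Rb1. Further members are given where the text describes their class. The members and lists were chosen with earlier results of these data known. Alternatives covered the pseudocount, filter, probe set choice, quantile normalization, the experiment block, the arrays fitted, a minimum fold and each array left out. Some genes of the pathway lists are not reported here.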

Additional observations from a re-analysis of the deposited data

Results flagged for a closer look

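The double-positive difference from double-negative cells departed from the red-only plus green-only differences for 3 of the 38 members (limma interaction, adjusted p under 0.05). Of all genes 4.8% were called in the positive direction, and whether the members exceed that share was not tested. The contrast compares sorted populations, since every population came from cells with the same reporters. The interaction was 0.76 ± 0.20 for Pold1 (SE; adjusted p = 0.0284), 0.57 ± 0.14 for Pold2 (adjusted p = 0.0177) and 0.57 ± 0.14 for Rfc5 (adjusted p = 0.0238), on the log2 scale. A positive value means that double-positive cells were lower than double-negative cells by less than the red-only and green-only differences added together. For Pold2, the accessory subunit of polymerase delta, intensities were 67.8, 65.2 and 73.9 in double-positive cells, 65.5, 74.8 and 78.7 in red-only cells and 65.3, 62.03 and 72.2 in green-only cells, against 113, 94.8 and 111 in double-negative cells, so the 3 reporter-positive populations overlapped below the double-negative arrays. All 3 were lost when a log2 change of at least 1 was required. Among the other 21 alternatives Pold2 was called in each (adjusted p from 0.00595 to 0.0479), Pold1 was lost under 6 (0.00963 to 0.0735) and Rfc5 under 4 (0.00719 to 0.0611). The count of called members was 6 without double-positive A, 5 without double-negative B, 2 without double-positive B, red-only A or double-negative A, and 1 without double-positive C or red-only B.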

How the results depend on the processing

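For double-positive, red-only and green-only against double-negative cells and for double-positive against red-only cells, the counts of members called stayed within 1.5 times of those reported under every alternative except a minimum fold. Requiring a log2 change of at least 1 left 8, 0, 2 and 0 of them, 0 in double-positive against green-only, 0 in red-only against green-only and 0 for the interaction. Double-positive against green-only cells gave 1 member with a pseudocount of 1, and 0 with only the 6 arrays compared or, as an alternative added after seeing the data, without double-positive A and green-only A together (2 at an unadjusted p under 0.05). Red-only against green-only gave 1 member with a pseudocount of 1, with every probe set on its own, and with only the 6 arrays compared, and 5 without that pair. The interaction gave 6 with quantile normalization and 7 without that pair. With experiment as replicate block, red-only against green-only gave 5, the paired fit moved no other count by over 1.5 times, and the calls it added are named with the results, with none lost. Leaving out each array in turn gave 34 to 36 members in double-positive, 18 to 27 in red-only and 29 to 32 in green-only against double-negative cells, 13 to 21 in double-positive against red-only, 0 to 2 in double-positive against green-only, 1 to 4 in red-only against green-only and 1 to 6 for the interaction. A minimum fold aside, each member in each comparison under each alternative gave a result. Of these results 5587 kept their direction and side of the threshold, 73 gained a call, 154 lost it and 0 reversed. The cause of these changes was not tested. Dim probe sets such as those of Tyms, Ccne2 and Orc1 limit what can be said of these genes, and 3 arrays a population limit the rest.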

Other observations

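Mitosis genes, listed apart from the replication genes, were lower in the same 3 comparisons, in other proportions. Of 19 tested, 17 were lower in double-positive cells, 15 in red-only cells and 9 in green-only cells (17.6%, 12.7% and 11.4% of all genes). The medians were -0.60, -0.41 and -0.28 on the log2 scale, and all 19 double-positive values were negative. Bub1, a spindle checkpoint kinase, read 38.2, 34.4 and 44.2 in double-positive cells, 57.2, 46.4 and 51.5 in red-only cells and 60.5, 43.2 and 58.6 in green-only cells, against 96.5, 95.6 and 101 in double-negative cells. Its log2 fold change was -1.25 (adjusted p = 6.38e-06) in double-positive cells. On the same scale Cdc20, which activates the anaphase-promoting complex, was -1.04 (adjusted p = 2.97e-06), Ccnb2, a mitotic cyclin, -0.91 (adjusted p = 9.62e-07) and the kinase Aurkb -0.80 (adjusted p = 0.000113). Double-positive cells were lower than green-only cells for 6 of the 19 mitosis genes and 2 of the 38 replication genes, where 2.77% of all genes were lower. Between red-only and green-only cells the medians had opposite signs, at -0.16 for the mitosis genes with 17 of 19 negative and 0.23 for the replication genes with 38 of 38 positive. Few of these genes passed the test in that comparison (1 mitosis gene, Kif11, lower and 2 replication genes higher, against 1.77% and 1.32% of all genes). The difference between the lists was not tested, and the medians' signs are a description of these arrays.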
